A study of Caenorhabditis elegans with 2 samples.

Results

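The regions described here were the strong ChIP-seq regions of tagged PAG-3 that lay at the promoter of 1 gene alone in late embryos of the nematode Caenorhabditis elegans. They were selected on the signal value of the authors' pooled candidate list. The 2000 candidates of largest signal value were taken, and a summit was kept if exactly 1 gene had a protein-coding transcript start for which it lay at most 1000 bp upstream or 200 bp downstream. Summits within 100 bp of a tRNA, snoRNA or snRNA gene were left out, as were those in the right end of chromosome V from position 16739345 onward. This gave 502 regions at 480 genes, of 21336 pooled candidates and 19973 protein-coding genes. Of the rest of the 2000 strongest, 158 lay at promoters of several genes, 868 in no promoter window, 168 at a small RNA gene and 304 in the right end of V. A further 4809 single-gene promoter candidates ranked below 2000, and they serve as the comparison below.

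The series held 1 group of 2 biological replicates of whole hermaphrodites of strain OP154, which carries unc-119(ed3) and the integrated array wgIs154, with GFP and FLAG tags at the C-terminal end of PAG-3. Worms were collected 4 h after synchronization by bleaching of eggs, and an anti-GFP antibody was used for the precipitation, per the sample description. The antibody field of the labels names pag-3 instead, which may give the target, so the protein mapped is taken here to be the transgene product, on the description alone. The sample was a mixture of all embryonic cells, and binding in a few cells cannot be told apart from weaker signal in many. No second condition, no untagged control and no read depth were analysed here, so every comparison below is between sets of regions and is a description.

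PAG-3 belongs to the GFI family of zinc-finger proteins, which in mammals bind DNA containing the core AATCAC and mostly repress transcription. In worms pag-3 acts in neuron fate, and its loss alters the BDU interneurons, touch receptor neurons and ventral cord lineages. Many worm transcripts have their first bases replaced by a spliced leader, so that an annotated start often marks the trans-splice site and RNA synthesis can begin upstream of it. Highly occupied promoters shared by many factors are a known feature of ChIP-seq in this animal.

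The sequences of the 8 strongest members follow, since they show that the top of the ranking held different kinds of DNA. Each covers the summit and 50 bp to either side of it, read 5′ to 3′ along the strand of the gene from the RefSeq WBcel235 assembly, which is build ce11. Capitals mark, on either strand, the GFI core AATCAC, the GA repeat GAGAGA, the word CTGCGTC, the alternating word GCGCGC, the GC-box word GGGCGG and the octamer AAAAGGGG.
K12H4.5, chrIII:8043906-8044006, strand +: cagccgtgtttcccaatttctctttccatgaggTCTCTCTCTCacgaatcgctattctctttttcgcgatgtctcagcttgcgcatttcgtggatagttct
M01F1.9, chrIII:3499953-3500053, strand -: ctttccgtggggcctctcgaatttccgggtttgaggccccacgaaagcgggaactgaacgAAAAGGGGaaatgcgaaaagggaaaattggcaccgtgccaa
eel-1, chrIV:3050585-3050685, strand -: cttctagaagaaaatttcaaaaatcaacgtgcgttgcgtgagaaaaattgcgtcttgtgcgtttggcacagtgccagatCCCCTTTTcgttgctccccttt
T13C5.6, chrX:6207790-6207890, strand -: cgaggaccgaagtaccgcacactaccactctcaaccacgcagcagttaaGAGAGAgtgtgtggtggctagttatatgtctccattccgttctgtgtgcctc
rps-24, chrIV:385232-385332, strand +: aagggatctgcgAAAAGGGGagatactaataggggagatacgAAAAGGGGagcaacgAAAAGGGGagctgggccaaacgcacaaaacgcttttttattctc
ftt-2, chrX:11606171-11606271, strand -: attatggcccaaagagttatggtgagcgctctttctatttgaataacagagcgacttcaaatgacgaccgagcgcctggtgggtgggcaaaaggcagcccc
cdc-48.1, chrII:10563508-10563608, strand -: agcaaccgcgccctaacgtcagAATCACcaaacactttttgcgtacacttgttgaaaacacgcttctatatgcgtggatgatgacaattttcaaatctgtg
ippk-1, chrII:12042387-12042487, strand +: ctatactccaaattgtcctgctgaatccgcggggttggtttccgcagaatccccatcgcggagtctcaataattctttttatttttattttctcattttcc

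K12H4.5 carried a run of TC repeats, and T13C5.6 held GAGAGA. The windows of M01F1.9, eel-1 and rps-24 shared AAAAGGGG, which occurred 3 times at rps-24. The GFI core AATCAC stood in the window of cdc-48.1 only among these 8, and ftt-2 and ippk-1 held none of the marked words. The next windows are shown as the strongest further examples of the GFI core (drap-1, col-44), of the GA repeat (sms-2) and of CTGCGTC (epn-1, serp-1.1, B0348.10).
drap-1, chrV:9731211-9731311, strand +: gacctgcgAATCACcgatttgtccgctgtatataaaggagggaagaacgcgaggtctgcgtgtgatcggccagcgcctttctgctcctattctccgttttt
col-44, chrX:13590719-13590819, strand +: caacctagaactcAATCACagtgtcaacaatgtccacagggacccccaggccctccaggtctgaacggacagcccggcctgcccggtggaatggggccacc
sms-2, chrX:949650-949750, strand -: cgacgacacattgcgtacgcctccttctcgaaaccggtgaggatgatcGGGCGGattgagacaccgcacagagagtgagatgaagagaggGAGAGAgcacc
epn-1, chrX:14818958-14819058, strand -: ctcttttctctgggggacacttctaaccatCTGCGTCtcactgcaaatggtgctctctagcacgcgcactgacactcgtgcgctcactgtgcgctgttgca
serp-1.1, chrX:15841243-15841343, strand +: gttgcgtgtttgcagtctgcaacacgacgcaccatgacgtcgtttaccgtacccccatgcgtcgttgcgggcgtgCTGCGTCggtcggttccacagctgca
B0348.10, chrV:8853-8953, strand -: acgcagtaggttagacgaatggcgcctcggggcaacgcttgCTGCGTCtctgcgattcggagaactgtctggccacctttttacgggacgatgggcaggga

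The strongest single-gene promoter region lay on chromosome III from 8043781 to 8044136, with its summit 531 bp upstream of K12H4.5. Its signal value was 685 in the pooled list, 267 in replicate 1 and 412 in replicate 2. The region of M01F1.9, on chromosome III from 3499887 to 3500152, had 416 in the pooled list, with 175 and 238 in replicates 1 and 2. These 2 regions stood apart from all other members in both replicates.

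The third region, at eel-1, which encodes a HECT-type ubiquitin ligase, lay on chromosome IV from 3050410 to 3050859 and 531 bp upstream of the start. It had a signal value of 265 in the pooled list, and its partner had 113 in replicate 1 and 148 in replicate 2. A further region at eel-1, 736 bp upstream with a pooled value of 162, overlapped it and shared the same replicate partner. A shared partner follows from matching by overlap, so the replicate values do not give these regions separate support. Partners were shared in the same way at rps-24, a protein of the small ribosomal subunit, whose regions at 605 and 339 bp upstream had pooled values of 195 and 143 and 1 partner of 74.5 in replicate 1 and 111 in replicate 2.

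T13C5.6, on chromosome X, had a pooled value of 208, with 95.4 in replicate 1 and 115.4 in replicate 2 and a summit 153 bp upstream. The region of ftt-2, which encodes a 14-3-3 protein, had a pooled value of 193 and, of the 20 strongest, leaned most towards replicate 1, with 118 in replicate 1 against 72.3 in replicate 2. At cdc-48.1, an AAA ATPase that unfolds ubiquitinated proteins, the pooled value was 189, with 87.3 and 102 in replicates 1 and 2. Summits of T13C5.6 and ftt-2 each had an annotated ncRNA gene within 100 bp.

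The inositol phosphate kinase gene ippk-1 had a pooled value of 168, with 64.04 in replicate 1 and 98.1 in replicate 2. The large ribosomal subunit gene rpl-3 had 156, with 65.1 and 91.1 in the replicates. Genes of the next ranks were tos-1 (pooled value 148), the BAG-family chaperone regulator bag-1 (147), C34C12.9 (142), the cohesin loader scc-2 (140), Y62F5A.12 (140) and the sphingomyelin synthase gene sms-2 (133). They were followed by duo-3 (131), Y50D4C.5 (128.9) and the tubulin glutamylase gene ttll-4 (128.5).

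**Figure D1:**
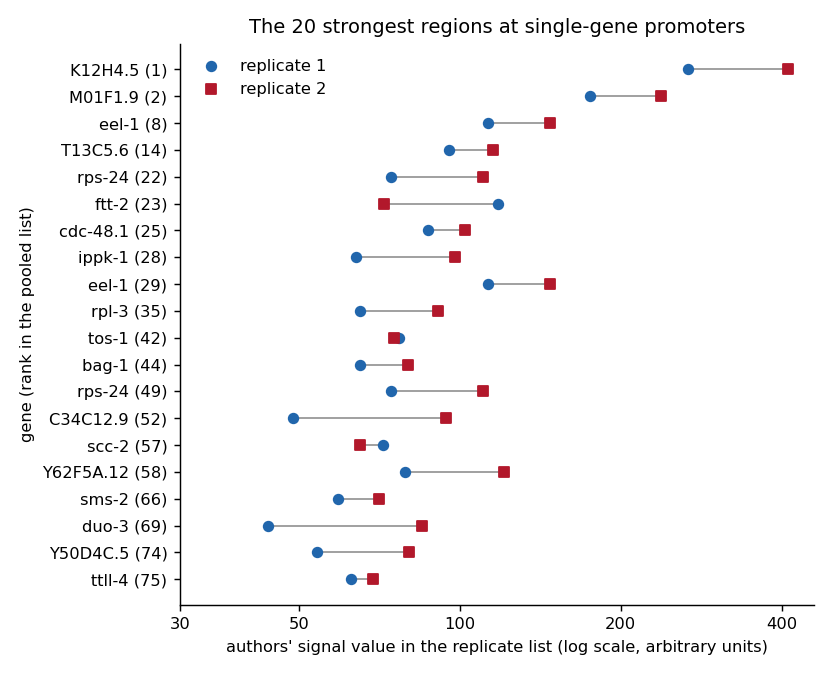
Signal value in replicate 1 (circles) and replicate 2 (squares) of the 20 strongest single-gene promoter regions, on a log axis in the authors' arbitrary units, with the rank in the pooled list in parentheses. K12H4.5 (267 and 412) and M01F1.9 (175 and 238) stand apart, and the repeated points of eel-1 and rps-24 are shared replicate partners.

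Pooled signal values of the 502 regions ran from 52.8 to 685, with a median of 63.8, so most members lay close to the limit that chose them. Just inside it, anc-1, C38C3.4 and noca-2 had 52.8, and just outside it the single-gene promoter regions of elo-8, ccm-2 and mrt-2 had 52.6. The anc-1 region had 19.1 in replicate 1 and 34.02 in replicate 2, against 27.5 and 22.5 for elo-8. The regions either side of the limit thus overlapped in their replicate values. The −log10 q values of the members ran from 0.764 to 2.61, with a median of 1.17.

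The authors' list of peaks past their threshold on the irreproducible discovery rate (IDR) held the 327 strongest pooled regions, which were 1.53% of the pooled candidates. It held 85 of the 502 members (16.9%). Since that list and the selection both follow the pooled signal value, nothing is read from this share. The other 417 members were candidates that the authors' own threshold did not pass.

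Of the 502 members, 499 overlapped a candidate of replicate 1, 499 one of replicate 2 and 496 both. They overlapped one of the 2000 strongest regions in replicate 1 in 312 cases (62.2%) and in replicate 2 in 362 (72.1%). Both conditions held for 215 (42.8%), against 41.5% of the 2000 strongest pooled regions and 5.11% of all pooled candidates, so the members' share was near that of the strongest regions in general. Among weaker single-gene promoter candidates it was 1.48%. The replicates make up the pooled list, which makes these shares dependent on the selection.

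By order among the members, the share found in both replicates' strongest 2000 was 100% for members 1 to 20, 97.5% for 21 to 100, 51.3% for the following 150 and 15.9% for the last 252. The signal value was higher in replicate 1 in 196 of the 496 regions matched in both, and the medians were 31.5 in replicate 1 and 34.3 in replicate 2. Spearman's rho between replicate signal values over these 496 regions was 0.160. These points share 2 libraries and were selected on their pooled value, which limits rho.

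The ratio of replicate 1 to replicate 2 had a median of 0.908 over the 496 regions, with an interquartile range of 0.685 to 1.17. The extremes are named next. At unc-108, which encodes a Rab2 GTPase, a member with a pooled value of 60.3 had 13.2 in replicate 1 and 39.5 in replicate 2. The regions of lin-66 (19.7 and 58.4) and Y54E10A.10 (15.7 and 42.5) were tilted the same way. At the other end, zfp-1, a homologue of mammalian AF10, had 44.9 in replicate 1 and 15.9 in replicate 2, abu-12 had 42.8 and 15.3, and the G protein alpha subunit gene gpa-7 had 49.8 and 19.5. The full range of ratios was 0.334 to 2.82.

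**Figure D2:**
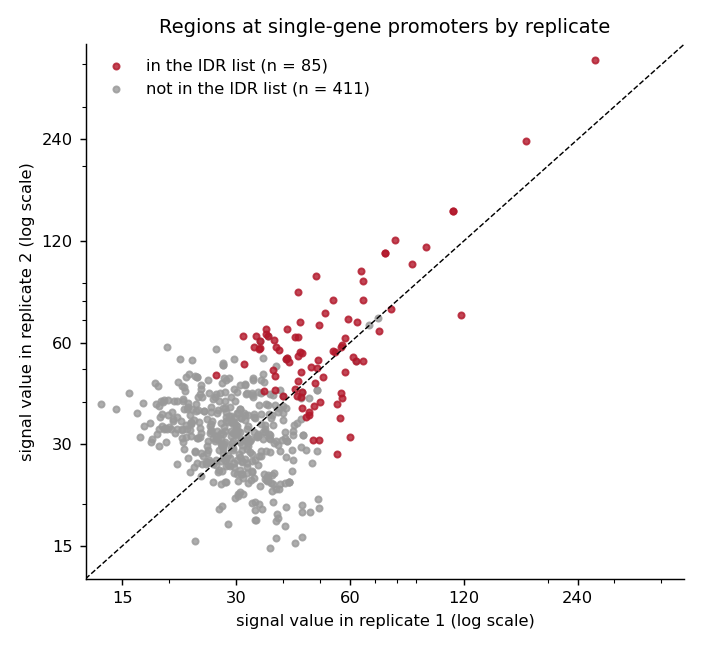
Signal value in replicate 1 against replicate 2, both on log axes in the authors' arbitrary units, for the 496 members with a partner in each list, of which 85 are in the IDR list. The dashed line marks equal values, and outside the IDR list the points form a round cloud with no clear slope (rho over all 496 is 0.160).

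Applying the same rule to each replicate's own list gave 465 regions at 443 genes in replicate 1 and 521 regions at 496 genes in replicate 2. Of these genes, 294 (66.4%) and 340 (68.5%) were among the 480 member genes. The replicates' own lists had 206 genes in common, or 46.5% of the genes of replicate 1 and 41.5% of those of replicate 2. Of the 206 genes, 200 were member genes. The measures that follow are given for these own lists too, as the spread between replicates.

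Several members lay at 1 gene in 21 cases. The gene gsa-1, which encodes a stimulatory G protein alpha subunit, had 3 regions, and the others had 2. The kinase gene kin-29 had pooled values of 118 at 152 bp and 59.0 at 361 bp upstream, and swsn-3, of the SWI/SNF remodeler, had 100.7 at 218 bp and 63.0 at 422 bp. The regions of eef-1A.2 and sor-1 were likewise paired. In all, 16 pairs of member regions overlapped, so the 502 regions are not all separate events.

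Summits of the members lay a median of 284 bp upstream of the nearest start of the gene (interquartile range 103.5 to 632), and those of the weaker single-gene promoter candidates 295 bp (38 to 636). The medians were alike, but the shapes differed. Summits downstream of the start were 65 of 502 members (12.9%), against 20.5% of the weaker candidates. The fullest 100 bp bin of the members, from 200 to 100 bp upstream, held 76 of them (15.1%), against 9.63% of the weaker candidates. Within 200 bp upstream lay 26.7% of the members and 21.2% of the weaker candidates, and in the replicates' own strong lists this share was 26.6 ± 0.990% (SD, n = 2), against 20.9% and 20.8% in their weaker candidates.

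The members in the IDR list lay still more on the upstream side. Of these 85 regions, 2 (2.35%) had the summit downstream of the start, against 15.1% of the members not in the IDR list. Within 200 bp upstream were 34.1% of the IDR members and 25.2% of the others. Examples close to the start among the strongest were tos-1 at 95 bp, scc-2 at 116 bp and cdc-48.1 at 151 bp upstream, while M01F1.9 at 946 bp and C34C12.9 at 949 bp lay near the outer limit of the window.

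**Figure D3:**
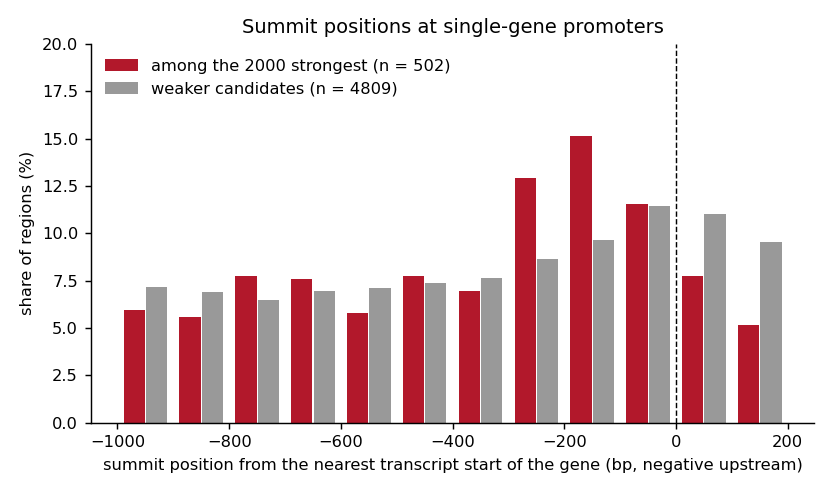
Share of summits in 100 bp bins relative to the nearest transcript start of the gene, in bp with negative values upstream, for the 502 members and the 4809 weaker single-gene promoter candidates. Members peak at 15.1% in the bin from 200 to 100 bp upstream, while the weaker candidates are flatter and extend across the start.

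Between protein-coding genes lay 316 members (62.9%), against 42.1% of the weaker candidates. Coding exons of the gene itself held 7.37% of the members and 13.8% of the weaker candidates. Exons of another gene held 5.38% and 13.8%, and introns of the gene 13.9% and 18.99%, members first in each case. Untranslated exons of the gene held 6.57% of the members and 5.78% of the weaker candidates. The M01F1.9 summit was among the 19 members in an intron of another gene.

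GC content within 50 bp of the summit averaged 49.9 ± 8.92% in the members (SD over 502 regions), against 41.4 ± 9.99% in the weaker candidates and 34.1 ± 8.10% in the same length upstream of all protein-coding genes. Windows of this length centred 500 bp to either side of the summits did not differ as the summits did, with 35.8% for members and 35.6% for weaker candidates. The summit exceeded its own flanks in 449 members (89.4%) and in 68.6% of the weaker candidates. In the replicates' own lists the strong regions averaged 48.3 ± 0.210% (SD, n = 2), against 40.4% and 40.5% in their weaker candidates, a gap well above the spread between replicates. Base composition is also known to affect how evenly fragments are amplified and sequenced, and its part in the signal value was not tested.

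High GC content was also seen in strong regions elsewhere. Those in no promoter window averaged 50.7%, and the ones at promoters of several genes 45.1%. Members in the IDR list averaged 49.4% and the other members 49.9%. By order it averaged 46.2% in members 1 to 20, 51.1% in members 21 to 100, 50.7% in the following 150 and 49.3% in the last 252. Of the 20 strongest windows 8 were masked as repeats over more than 50% of their length, and C34C12.9 (26.7%) and Y50D4C.5 (24.8%) were AT-rich at the summit.

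The hexamer GAGAGA, counted on both strands, occurred in 120 of 502 members (23.9%, 95% Wilson interval 20.4 to 27.8), against 10.5% of the weaker candidates (9.71 to 11.4). Flanks of the members held it in 6.18% of windows, and windows upstream of all protein-coding genes in 9.03%. Other strong regions held it too, in 19.6% (17.1 to 22.4) of those in no promoter window. At promoters of several genes it stood in 14.6% (9.90 to 20.9) of the strong regions. The word was therefore not particular to single-gene promoters. In the replicates' own lists it stood in 16.1% and 21.1% of strong regions, against 10.1% and 10.3% of weaker candidates. The excess was therefore present in each replicate, and its size varied between them. Among windows above 50% GC it was found in 25.9% of members and 16.2% of weaker candidates, and among the others in 21.6% and 9.09%. GAGAGA and the other words were chosen with earlier results of these data known, so their shares carry no independent support.

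On the strand of the gene, the word read TCTCTC in 16.5% of the members and GAGAGA in 8.57%. The weaker candidates had the same tilt, with 7.19% and 3.60%. The windows of K12H4.5 (TCTCTC), T13C5.6 and sms-2 (GAGAGA) printed above are the strongest of these 120. Signal values of the members with the word were not higher than those without it, with medians of 62.2 and 64.4.

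The GFI core AATCAC occurred in 15 members (2.99%, 95% Wilson interval 1.82 to 4.87), against 4.47% of the weaker candidates (3.92 to 5.09), 4.88% of the members' flanks and 6.04% of the windows upstream of all protein-coding genes. Over all members it was thus not more frequent at the summits than in any of these sets. The share of the word differed with position, but the counts were small, the intervals overlapped and no test was made. Among the 134 members within 200 bp upstream it occurred in 9 (6.72%, 3.57 to 12.3), close to the share of the upstream windows. Among the 164 members over 500 bp upstream it occurred in 4 (2.44%, 0.952 to 6.10). In the replicates' own lists the shares were 4.73% and 4.03% in strong regions, against 4.54% and 4.65% in weaker candidates, a difference within the replicate spread. Above 50% GC the word was found in 2.63% of members and 2.22% of weaker candidates, and at 50% or less in 3.39% and 5.06%. In the IDR members it occurred in 5 of 85 (5.88%, 2.54 to 13.0). Its strongest holders were cdc-48.1, drap-1, named for a subunit of a repressor of the TATA-binding protein, and col-44, a cuticle collagen gene. The absence of the word says only that these letters were not in the window.

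Other GC-rich words, chosen with earlier results of these data known, were more frequent at the members than at the weaker candidates. CTGCGTC occurred in 6.97% of them, against 2.50% of the weaker candidates and 1.73% of all upstream windows, and in 4.95% and 6.72% of the replicates' own strong regions against 2.09% and 2.37% of their weaker ones. Its strongest holders were epn-1, which encodes the endocytic adaptor epsin, serp-1.1 and B0348.10. Above 50% GC, CTGCGTC stood in 10.2% of members and 4.74% of weaker candidates, and at 50% or less in 3.39% and 1.91%. GCGCGC was found in 6.57% of members and 2.25% of weaker candidates. Above 50% GC the GCGCGC shares were 9.02% (6.14 to 13.1) and 5.95% (4.64 to 7.60), and at 50% or less 3.81% and 1.28%. GGGCGG was found in 7.97% of members and 4.89% of weaker candidates, and at GC contents above 50% in 13.2% and 12.2%, which is close to the same. Other strong regions held these words at similar shares. At promoters of several genes CTGCGTC stood in 5.70%, GCGCGC in 8.23% and GGGCGG in 9.49%. In no promoter window the shares were 4.95%, 5.41% and 7.14%.

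Words typical of core promoters and splice sites were less frequent. The TATA-box word TATAAA occurred in 4.18% of members, against 8.94% of weaker candidates and 14.2% of all upstream windows. At a GC content of 50% or less it was found in 8.05% of members (95% Wilson interval 5.21 to 12.2) and 10.9% of weaker candidates, a smaller gap. TTTCAG, a typical end of worm introns and trans-splice acceptors, occurred in 5.38% of members, against 15.1% of weaker candidates and 13.6% of all upstream windows, and at a GC content of 50% or less in 9.32% of members and 17.6% of weaker candidates. Runs of 8 T occurred in 4.38% of members and 8.42% of weaker candidates, and at a GC content of 50% or less in 8.90% and 10.4%. The upstream windows were all centred 100 bp upstream of a start, and differences in position were not separated from these gaps. Within 200 bp upstream TATAAA and TTTCAG each stood in 6.72% of members, and over 500 bp upstream in 4.27% and 2.44%. Low shares were also seen in other strong regions. In no promoter window TATAAA stood in 2.76%, TTTCAG in 5.76% and runs of 8 T in 2.53%. At promoters of several genes the shares were 6.33%, 9.49% and 4.43%. CCAAT (15.9% and 19.2%), the E-box CACGTG (2.79% and 2.20%), GATAAG (2.19% and 3.68%) and the homeodomain word TAATTA (2.99% and 5.53%) are given in the same order. AP-1's TGACTCA was found in 1 member.

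**Figure D4:**
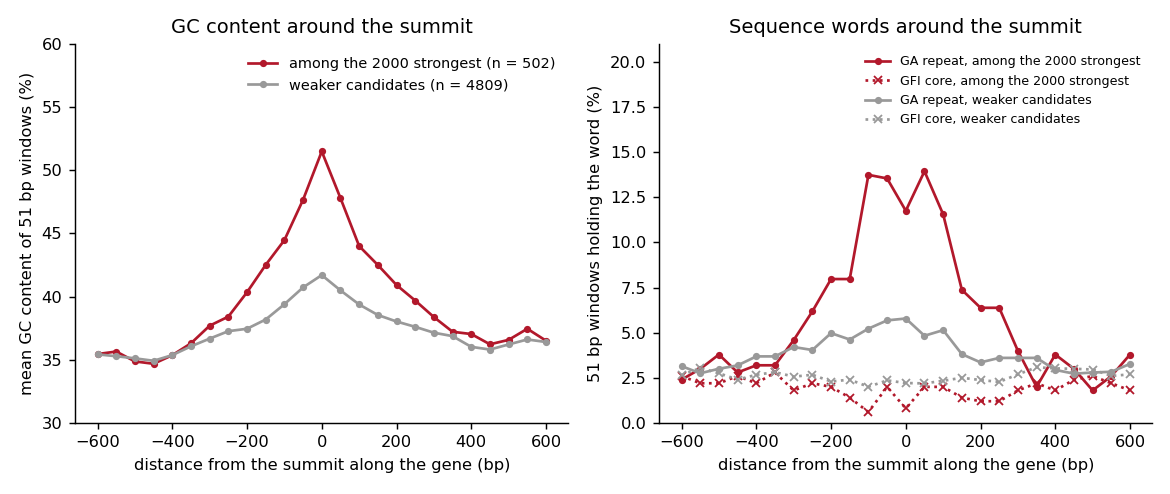
Mean GC content (left) and share of windows holding the GA repeat (GAGAGA, solid) or the GFI core (AATCAC, dotted) (right) in 51 bp windows every 50 bp along the gene, by distance from the summit in bp, for the 502 members and the 4809 weaker candidates. GC content reaches 51.5% at member summits and 41.7% at weaker ones, and 500 bp upstream it is 34.9% and 35.1%.

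The octamer AAAAGGGG was chosen after the strongest sequences had been read, so its counts are a description with no independent support. It occurred in 19 members (3.78%), against 0.977% of the weaker candidates and 0.736% of all upstream windows. Strong regions at promoters of several genes held it in 7 of 158 (4.43%), and those in no promoter window in 18 of 868 (2.07%). The octamer was therefore not particular to single-gene promoters. Among the 20 strongest members it stood in 7, and in 5 of members 21 to 100, 4 of the following 150 and 3 of the last 252. The holders in the strongest 20 were M01F1.9, both regions of eel-1, both of rps-24, Y62F5A.12 and ttll-4. At Y62F5A.12 the signal value was 79.0 in replicate 1 and 121 in replicate 2, and at ttll-4 it was 62.7 and 68.9.

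Repeats were common among these windows. Of the 19, 9 were masked as repeats over more than 50% of the window, and 9 held words of 36 bases that recur in the genome. Of the other 483 members these counts were 28 and 13. At eel-1 the 2 regions had 54.5% and 6.06% unique words, and at duo-3, which lacks the octamer, 0% were unique. At M01F1.9, none of the window was masked and all of it was unique. How reads from copied sequence were placed is not given in the sources used here, and its part in these signal values was not tested. Over all members, 480 (95.6%) were unique throughout, against 94.9% of the weaker candidates.

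Chromosome X carried 124 members (24.7%), against 17.99% of the weaker candidates and 14.3% of protein-coding genes outside the left-out end of V. In the replicates' own lists the share was 23.3 ± 0.864% (SD, n = 2), against 17.5% and 17.4% in their weaker candidates. T13C5.6, ftt-2 and sms-2 were its strongest members. Member summits on X averaged 51.6% GC and held GAGAGA in 28.2%, against 49.3% and 22.5% on the autosomes. Chromosome IV had 11.4% of the members and 15.5% of the weaker candidates. The number of X copies is equal to that of autosomes in hermaphrodites, and whether the tag signal on X followed base composition was not tested.

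Member genes had more space upstream. The distance to the next protein-coding gene upstream had a median of 2286 bp for the 480 member genes, against 1326 bp for genes with weaker regions only and 937 bp for all genes. Over 2000 bp of space was found at 53.96% of member genes, 40.2% of genes with weaker regions only and 31.5% of all genes. Member genes were also longer, with a median of 4195 bp against 2833 bp for genes with weaker regions only and 2027 bp for all genes. Several annotated transcript starts were found at 49.2% of member genes, 42.1% of genes with weaker regions only and 26.3% of all genes. The gaps to genes chosen by the same promoter rule were thus smaller than those to all genes. Other non-coding RNA genes or pseudogenes lay within 100 bp of 67 members (13.3%) and of 7.63% of the weaker candidates.

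Among 25 lists of genes, those for nervous system structure had the largest shares at member promoters, set against 480 of 19973 genes (2.40%) in all. Of 32 axon guidance genes, 7 (21.9%) had a member, and of 41 pan-neuronal synaptic genes 7 (17.1%). These genes are long, with median lengths of 8707 and 7513 bp, and 56.2% and 73.2% of them have several starts. Among genes that had any single-gene promoter candidate the shares were 38.9% (of 18) and 30.4% (of 23), against 11.2% of all 4276 such genes. The lists are small, so 1 gene moves these shares by several percentage points, and no test of a list was made.

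The strongest axon guidance member was unc-115, whose product binds actin in growth cones, with a pooled value of 98.4, 57.02 in replicate 1 and 41.0 in replicate 2. The kinesin cargo adaptor gene unc-76 had 75.2, with 30.8 and 44.8 in the replicates. The ROR-type receptor gene cam-1 had 68.3, with 22.04 and 43.1. The adhesion molecule gene sax-7, the semaphorin gene mab-20, unc-14 and unc-53 completed the list with pooled values from 53.4 to 67.8. Only unc-115 among these 7 lay above the limit of the IDR list, 84.0.

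Among synaptic genes, the active zone gene cla-1 led with a pooled value of 87.9, with 49.96 in replicate 1 and 39.96 in replicate 2. It was followed by the Ras exchange factor gene rgef-1 (82.8, with 35.4 and 54.1) and the liprin gene syd-2 (82.0, with 38.9 and 38.4). The neuropeptide processing enzyme gene egl-21, the clathrin adaptor gene unc-11, the neurabin gene nab-1 and synaptobrevin, snb-1, had pooled values from 54.7 to 68.6. These are effector genes used by most neurons. Of 63 neuronal identity transcription factors, 4 had a member (6.35%): the RFX factor gene daf-19 (82.4), the LIM homeobox gene lin-11 (60.9), the Groucho gene unc-37 (55.5) and the Hox gene mab-5 (53.1).

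No member was found at the 23 genes of the touch receptor and BDU neuron list, and 10 of them had a single-gene promoter candidate among the weaker regions. With members at 2.40% of all genes and at 11.2% of genes with such a candidate, a list of this size can hold none without standing apart, so nothing is read from the count. Of 144 neuropeptide precursor genes, 2 had one, the insulin-like genes ins-30 (66.5) and ins-39 (57.9), and the ins-39 region had no partner in replicate 1.

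Lists of other tissues followed by share of all their genes. Of 33 muscle genes 4 had a member (12.1%), led by the kindlin gene unc-112 (82.5, with 38.2 in replicate 1 and 51.2 in replicate 2), the myosin gene unc-54 (64.4) and the paramyosin gene unc-15 (63.0). Of 19 epidermis genes 2 had one (10.5%), the alpha-catenin gene hmp-1 (81.7) and the junction gene ajm-1 (60.8). No member was found at the 21 intestine genes, of which 2 had any single-gene promoter candidate. Among genes with any single-gene promoter candidate the shares were 19.05% for muscle and 20% for epidermis.

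Of the housekeeping lists, the chromatin regulators had a member at 8 genes (7.69%), among them swsn-3 (100.7), swsn-7 (93.9) and the acetyltransferase gene cbp-1 (74.7). Translation factors and aminoacyl-tRNA synthetases had 5 of 75 (6.67%), with eif-3.I at 100, eef-1A.2 at 93.9 and eif-3.B at 91.3. Cytoplasmic ribosomal proteins had 4 of 78 (5.13%), of which rps-24 and rpl-3 were among the 20 strongest members, and rpl-35 had 81.3. Among genes with any single-gene promoter candidate, members were at 4 of 17 ribosomal protein genes (23.5%) and 8 of 35 chromatin regulators (22.9%). Translation factors had 5 of 22 (22.7%). These shares lay near those of muscle (4 of 21) and epidermis (2 of 10), and a single gene could change the order. The lower shares of the ribosomal, chromatin and translation lists over all genes were thus not seen by this measure. Neuronal identity factors had 12.1%, near the 11.2% of all such genes. Homeobox genes had 3 of 63 (4.76%), led by the ONECUT gene ceh-39 (65.0).

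Shares nearer to that of all genes were found for the lists named next. Mitochondrial proteins had 4 of 128, led by mrpl-15 (85.8). RNA polymerase II and Mediator genes had 2 of 68, taf-12 (80.6) and gtf-2H3 (63.7). Splicing and RNA processing genes had 2 of 83, hrpr-1 (100) and cpsf-1 (66.4). The cell cycle list had 2 of 69, cdc-48.1 and cdc-73 (86.2), which act in protein unfolding and in transcript elongation. Nuclear hormone receptors had 6 of 269, led by nhr-48 (83.1). The germline and maternal RNA regulator list had 1 of 37, puf-9 (68.5). That list was drawn by gene name, which alone does not show a germline role. The proteasome and ubiquitin list had 2 of 101, ufd-3 (103) and usp-4 (94.0), and vesicle traffic 2 of 109, sec-3 (76.8) and vps-50 (58.1). Among genes with any single-gene promoter candidate, these lists ran from 5% for vesicle traffic to 11.8% for mitochondrial and for splicing and RNA processing genes. All such genes had 11.2%.

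Low shares were also found for several large gene families. Every list, here and above, counts all its genes, also those in the left-out end of V, where the rule kept no region. Of the 19973 protein-coding genes, 19155 lie outside that end. How many genes of each list lie in it was not counted, so part of a low share can follow from the rule. Chemoreceptors had 5 of 1293 (0.387%), all on chromosome V, the strongest being srh-33 (60.2) and srw-129 (59.9). F-box and MATH-BATH genes had 1 of 395, fbxa-66 (70.5), and C-type lectins 2 of 240, led by clec-80 (75.4). Cuticle genes had 3 of 194, with col-44 (95.95), col-86 (66.8) and dpy-23 (54.4), of which dpy-23 encodes a clathrin adaptor subunit and not a collagen. Histones had 1 of 72, his-37 (72.6). Only 8 histone genes had any single-gene promoter candidate, so among these the share was 12.5%, near the 11.2% of all such genes. By this measure chemoreceptors had 4.72%, F-box and MATH-BATH genes 2.08%, C-type lectins 7.41% and cuticle genes 8.33%.

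**Figure D5:**
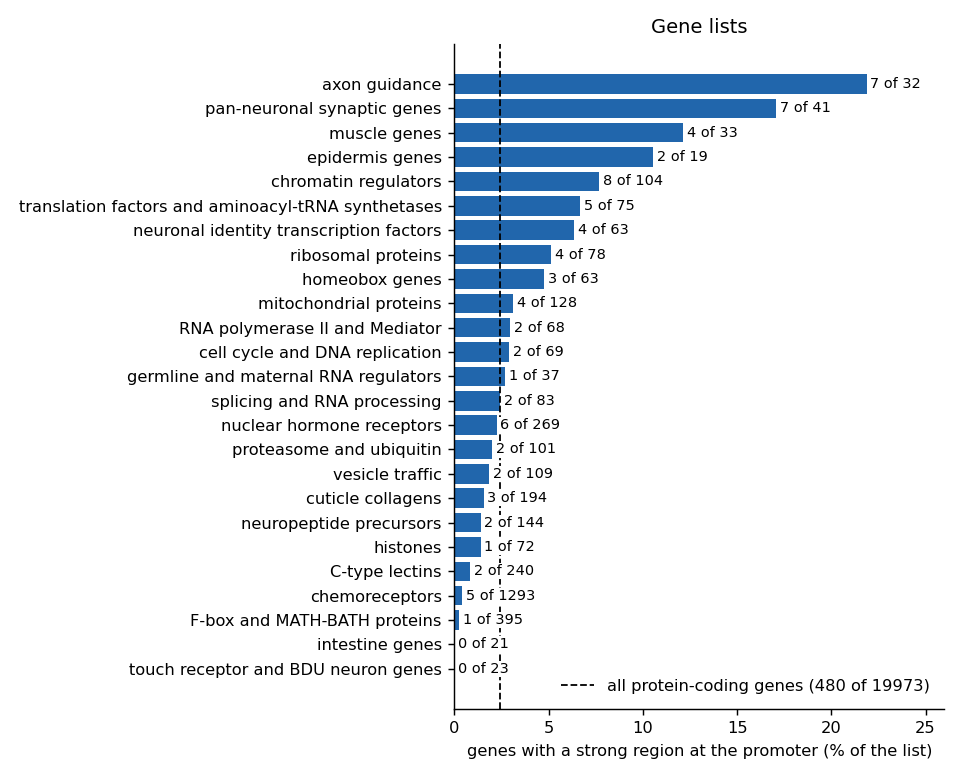
Share of the genes of each of 25 lists with a strong region at the promoter, in percent, with the count beside each bar and a dashed line at the share of all protein-coding genes (480 of 19973, 2.40%). Axon guidance (7 of 32) and pan-neuronal synaptic genes (7 of 41) are at the top, and touch receptor and BDU neuron genes (0 of 23) and intestine genes (0 of 21) at the bottom.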

How the data were processed

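Anti-GFP ChIP-seq of PAG-3 had been done in 2 replicates, and the deposited lists gave candidate regions for each replicate and for both pooled, and peaks past an IDR threshold, per the labels. The authors made the signal value and the −log10 q value of each region, and the deposited summit offset, per the column layout of the lists. The p-value column was a constant placeholder in all 21336 pooled regions and was left out. The sources used here name no peak caller, aligner or IDR limit, and give no depth. The ce10 lists were not used here. In 21316 pooled regions (99.9%) the summit was the centre of the region, and 496 of 502 members were 450 bp wide, so a summit locates signal only coarsely.

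Transcript starts came from the Ensembl release 115 annotation of WBcel235, which is ce11, and sequence from the RefSeq copy of that assembly. A region's partner in another list was the strongest region there that shared 1 bp or more with it. Signal values were not rescaled, and pooled and replicate values are on different scales. Wilson intervals (95%) treat regions as independent and cover counting only. With 1 group, no test between samples was possible and none was made over regions or genes. The members, gene lists and words were chosen with earlier results of these data known. Named genes were the 20 strongest members with a candidate in both replicates, up to 3 strongest members of each list (all of them for the axon guidance, synaptic and neuronal factor lists, an extension made after their values were seen), those nearest the limit, those of extreme replicate ratio, genes with several members and the holders of the printed words. Only the promoter window at isolated starts and the finding of planted GAGAGA words were tested on simulated data. Software was matplotlib 3.10.9, pandas 2.3.3, scipy 1.17.1 and numpy 2.4.6 under Python 3.11.15.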

Additional observations from a re-analysis of the deposited data

How the results depend on the processing

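No test was made, so the values below show how far each description moved. Leaving out a replicate gave 465 to 521 regions, a mean GC content of 48.1% to 48.4%, AATCAC in 4.03% to 4.73% and GAGAGA in 16.1% to 21.1% (main values 502, 49.9%, 2.99% and 23.9%). The 1000 strongest regions gave 266 members, 50.3% GC, AATCAC in 3.76%, 69.2% in both replicates' strongest 2000 and 32.0% in the IDR list. As many regions as the IDR list holds gave 85 members, a median of 308 bp upstream, 49.4% GC, AATCAC in 5.88%, 97.6% in both, a rho of 0.326 and 100% in the IDR list. A window from 500 bp upstream to 100 bp downstream gave a median of 178 bp, 48.8% GC and 20.5% in the IDR list. Sequence windows of 25 bp to each side gave 51.5% GC, AATCAC in 0.797% and GAGAGA in 11.8%, and windows of 100 bp gave 48.1%, 6.77% and 40.04%, as a word is found more often in a longer window. Matching replicate summits within 100 bp gave 34.9% in both, and distance from the first start of a gene a median of 200.5 bp. Leaving out summits near other non-coding RNA genes, chosen after seeing the data, gave a median of 277 bp and 49.4% GC. The causes of the other shifts were not tested. No paired analysis was possible because there was only 1 group. Depth is unknown, and 417 members lie below the authors' own threshold.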
